A study of Rattus norvegicus with 28 samples.

Results

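Toll-like receptors and the proteins that work beside them were followed in endothelial cells of rat heart grafts. The 9 genes were chosen by name as members of the pathway: the receptors Tlr1, Tlr2, Tlr3, Tlr4, Tlr6 and Tlr7, the co-receptors Cd14 and Ly96, and the adaptor Myd88. Of these 9 genes, 7 had a probe set in the annotation used here, among 14217 genes in all. Tlr3 and Tlr6 were not listed there and were not analysed here. Each of the other 7 had 1 probe set, so that no choice between probe sets entered their values.

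Toll-like receptors recognise molecules of microbes, and also molecules set free by injured tissue, which is why they are studied in reperfused and rejected transplants. Tlr2 works at the cell surface as a pair with Tlr1 or Tlr6 and senses lipopeptides, Tlr4 senses lipopolysaccharide with the help of Ly96 and Cd14, and Tlr3 and Tlr7 sense RNA inside endosomes. Myd88 is the cytoplasmic adaptor of all of these receptors except Tlr3 and passes the signal to kinases that switch on NF-kB and inflammatory genes. Macrophages and other myeloid cells carry high levels of most of these receptors, and vascular endothelium is known to respond to lipopolysaccharide through Tlr4.

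The study measured RNA of male rats on 28 Affymetrix arrays. Hearts had been placed in the recipient's neck with cuffs. Allografts were hearts of the DA (Dark Agouti) strain in Lewis recipients, and isografts were Lewis hearts in Lewis recipients, both taken on day 2, 3 or 4. Non-transplanted DA hearts and Lewis hearts served as the normal groups, 1 for each donor strain. Each of the 8 endothelial groups had 3 arrays, and 4 further arrays held leukocytes of allografts (1 of day 2, 2 of day 3 and 1 of day 4), which the labels give as Lewis, the recipient's strain. The minced hearts had been depleted of leukocytes with a CD45 antibody (clone Ox1) and then enriched for endothelium with a CD31 antibody (clone 3A12) on magnetic beads. No drug or gene alteration is named in any group. The normal hearts were not grafted, so that surgery, ischaemia and time in the recipient differ together between a graft and its normal group. The series names the 3 arrays as biological replicates but not whether hearts were pooled, so the p-values measure the spread between these arrays.

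The values are log2 signals of the RMA method, and 1 unit is a doubling. Array medians lay between 6.51 and 6.59 on the endothelial arrays and between 6.83 and 6.88 on the leukocyte arrays, which from their different medians appear to have been normalized apart from them. As a check of the endothelial label, the mean level of 12 endothelial markers was 12.1 to 12.5 on all 24 endothelial arrays and 8.89 to 10.85 on the leukocyte arrays. Pecam1, the CD31 antigen itself, lay between 10.99 and 12.35. A probe set's level depends on its probes, so levels are compared between arrays for 1 gene and not between genes. The enriched cells are a bulk sample, in which more cells of a type and more RNA per cell cannot be told apart.

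The promoters of 4 genes are shown because their RNAs behaved in different ways: Tlr2 and Cd14 rose in all grafts, Tlr4 was lower in all grafts, and Myd88 passed no test. They are RefSeq sequences of build GRCr8, from 250 bases before the annotated start to 50 bases after it, written 5′ to 3′ on the gene's strand. For Tlr2 and Cd14 this start, and the whole window, lie inside the gene positions given further below. Bases counted as before the start are therefore not outside the gene in these 2 cases. The Tlr2 window is chr2:171504508-171504807 (minus strand), the Cd14 window is chr18:28611109-28611408 (minus strand), the Tlr4 window is chr5:85160997-85161296 (plus strand) and the Myd88 window is chr8:127956181-127956480 (minus strand). Capitals mark matches to 5 motifs searched on both strands: NF-kB (given by its name alone), the interferon-stimulated response element GAAANNGAAA, the gamma-activated site TTCNNNGAA, AP-1 as TGANTCA, and PU.1 as GAGGAA.
Tlr2: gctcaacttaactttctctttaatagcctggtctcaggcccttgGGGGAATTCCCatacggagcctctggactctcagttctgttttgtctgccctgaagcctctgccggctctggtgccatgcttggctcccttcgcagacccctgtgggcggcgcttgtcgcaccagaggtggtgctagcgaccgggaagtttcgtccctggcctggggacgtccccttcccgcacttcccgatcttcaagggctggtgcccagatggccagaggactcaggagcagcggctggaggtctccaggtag
Cd14: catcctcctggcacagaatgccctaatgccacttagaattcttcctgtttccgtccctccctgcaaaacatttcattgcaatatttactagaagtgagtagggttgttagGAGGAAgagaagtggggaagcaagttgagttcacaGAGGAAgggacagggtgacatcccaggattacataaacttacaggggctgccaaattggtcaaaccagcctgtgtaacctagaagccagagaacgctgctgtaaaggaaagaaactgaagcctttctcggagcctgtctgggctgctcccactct
Tlr4: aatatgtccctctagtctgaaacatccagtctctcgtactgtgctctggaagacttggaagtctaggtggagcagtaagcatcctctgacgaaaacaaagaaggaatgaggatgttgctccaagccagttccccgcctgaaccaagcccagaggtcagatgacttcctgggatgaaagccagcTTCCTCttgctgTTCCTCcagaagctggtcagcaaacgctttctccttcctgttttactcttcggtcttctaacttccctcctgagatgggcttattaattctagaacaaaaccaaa
Myd88: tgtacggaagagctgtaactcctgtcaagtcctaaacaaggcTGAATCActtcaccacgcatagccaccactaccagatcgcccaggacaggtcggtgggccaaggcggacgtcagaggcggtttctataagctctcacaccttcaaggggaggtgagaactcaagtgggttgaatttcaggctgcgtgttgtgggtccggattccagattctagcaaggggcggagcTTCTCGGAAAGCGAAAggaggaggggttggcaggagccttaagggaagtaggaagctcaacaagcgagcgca

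In the Tlr2 promoter the capitals are a pair of overlapping NF-kB matches between bases -206 and -196 from the start. NF-kB matched in 4.18% of all 33469 promoters of the table and in 1 of the 8 member promoters that the table holds. In the Cd14 promoter the capitals are PU.1 matches at -140 to -135 and at -105 to -100, and in the Tlr4 promoter PU.1 matches on the other strand at -67 to -62 and at -55 to -50. PU.1, a factor of myeloid cells, matched in 27.6% of all promoters and in 5 of the 8 (Cd14, Tlr3, Tlr4, Tlr6 and Tlr7). The Myd88 promoter held an AP-1 match at -208 to -202, a gamma-activated site at -22 to -14 and an interferon-stimulated response element at -16 to -7, which overlap each other in the last 2 cases. These motifs matched in 7.33%, 8.87% and 3.92% of all promoters. Tlr1 held no match in its window, which lies inside the gene and does not cover the bases before its outer end. Ly96 has no entry in the table. A match describes letters in a window and says nothing of binding in these cells.

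**Figure D1:**
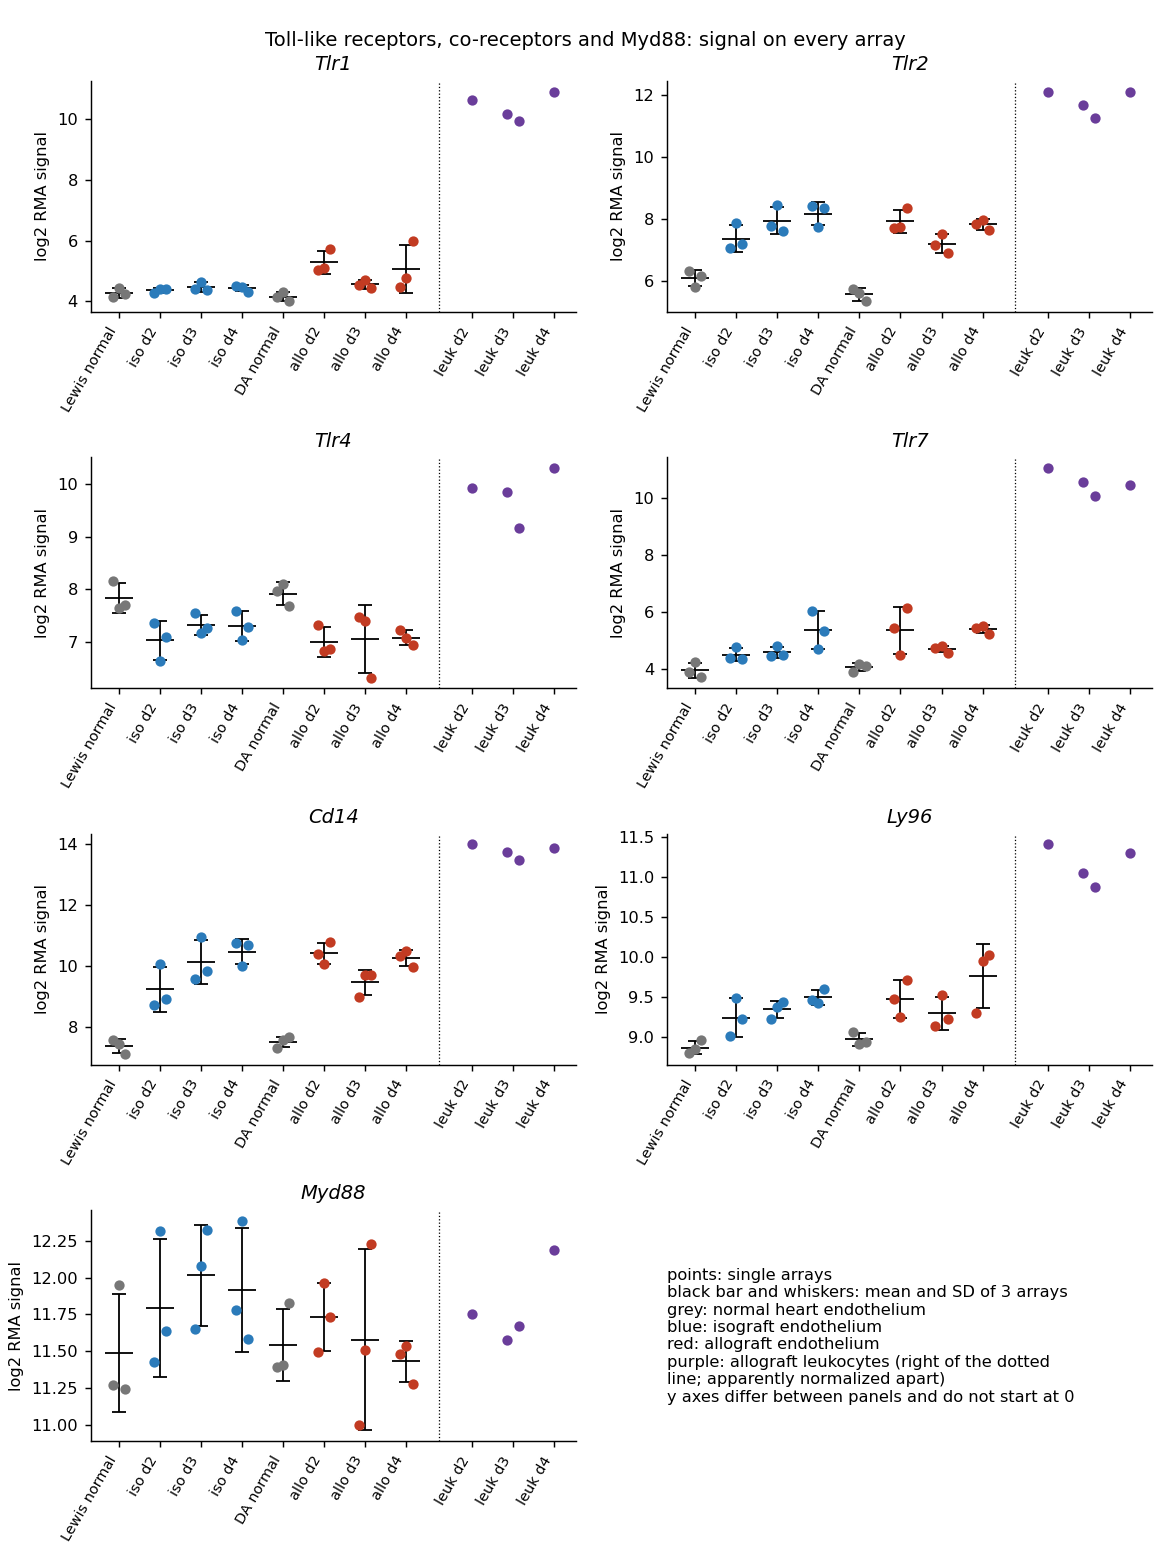
RMA log2 signal of the 7 measured genes on each of the 28 arrays, by group, with 1 point per array and black bars for the mean and SD of the 3 arrays of each endothelial group. Cd14 and Tlr2 are higher on all 18 graft arrays than on all 6 normal arrays, Tlr4 is lower, and the leukocyte arrays, apparently normalized apart, lie far above the endothelial ones for Tlr1, Tlr2, Tlr7 and Cd14.

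Grafted endothelium of both kinds held more Cd14 and Tlr2 RNA than normal endothelium of its strain on each of the 3 days, and in allografts it held less Tlr4 on days 2 and 4. Tlr7 and Ly96 rose by day 4 in both graft types, Tlr1 rose in allografts on days 2 and 4, and Myd88 did not pass the test anywhere. All tests are limma fits over 14217 genes, and a gene was called at a Benjamini-Hochberg adjusted p under 0.05. Across all 18 graft arrays and 6 normal arrays, 3 of the 7 genes lay higher on every graft array (Cd14, Tlr2 and Tlr7), against 2.05% of all genes, and 1 lay lower on every graft array (Tlr4), against 0.647% of all genes.

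In isografts, 2 of the 7 genes rose on day 2 (1.06% of all genes rose), 2 on day 3 (1.8% of all genes) and 4 on day 4 (2.61% of all genes). None of the 7 fell in isografts at the adjusted threshold, where 0.422%, 0.732% and 0.556% of all genes fell on days 2, 3 and 4. At an unadjusted p under 0.05, Tlr4 was lower on days 2 and 4. In allografts, 4 of 7 rose on day 2 (3.53% of all genes), 2 on day 3 (1.55%) and 5 on day 4 (7.19%). In the same allograft comparisons 1 of 7 fell on day 2 (2.45% of all genes), 0 on day 3 (0.724%) and 1 on day 4 (4.26%). The median change of the 7 genes was 0.37, 0.53 and 0.63 log2 in isografts and 1.15, 0.42 and 0.93 in allografts on days 2, 3 and 4. The median of all genes was between -0.011 and 0.030 log2 in each. All comparisons within a graft type share the same 3 normal hearts.

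Tlr2, the shared partner of the lipopeptide receptors (gene at chr2:171499189-171504831), rose on every day in both graft types. Its level was 5.75, 5.62 and 5.35 in normal DA hearts, and in allografts it was 7.71, 7.74 and 8.37 on day 2, 7.16, 7.53 and 6.92 on day 3, and 7.85, 7.98 and 7.65 on day 4. In normal Lewis hearts it was 6.33, 5.83 and 6.16, and in isografts 7.07, 7.88 and 7.19 on day 2, 7.77, 8.45 and 7.62 on day 3, and 8.43, 7.75 and 8.36 on day 4. No graft array overlapped the normal arrays of its strain, and the lowest graft group was allografts of day 3. The rise in allografts was 2.36, 1.63 and 2.25 log2 (SE 0.25, limma adjusted p 8.77e-06, 0.000706 and 8.53e-06), which is 5.15-fold, 3.09-fold and 4.77-fold. The rise in isografts was 1.27, 1.84 and 2.08 log2 (SE 0.25, limma adjusted p 0.00918, 0.000205 and 3.90e-05). The smallest of these, on day 2, lost its call without isograft day 2 replicate 2 (1.02 log2, adjusted p 0.102) or normal Lewis replicate 2 (1.13 log2, adjusted p 0.0706).

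Cd14, which hands lipopolysaccharide to the Tlr4 complex and also serves Tlr2 (chr18:28609558-28611409), changed most of the 7 genes in these arrays on each day. Normal DA hearts gave 7.33, 7.57 and 7.67, and allografts gave 10.39, 10.08 and 10.79 on day 2, 9.01, 9.70 and 9.72 on day 3, and 10.35, 10.49 and 9.97 on day 4. Normal Lewis hearts gave 7.60, 7.44 and 7.12, and isografts gave 8.73, 10.08 and 8.93 on day 2, 9.60, 10.96 and 9.85 on day 3, and 10.75, 10.00 and 10.69 on day 4. The normal hearts of both strains lay together, every graft array lay above them by over 1 log2, and replicate 2 stood above the other isograft arrays on days 2 and 3. Cd14 rose by 2.90, 1.95 and 2.75 log2 in allografts (SE 0.34, limma adjusted p 2.59e-05, 0.00233 and 2.52e-05), or 7.46-fold, 3.87-fold and 6.72-fold. In isografts it rose by 1.86, 2.75 and 3.09 log2 (SE 0.34, limma adjusted p 0.00506, 7.06e-05 and 1.08e-05), which is 3.63-fold, 6.74-fold and 8.53-fold. Tlr2 and Cd14 were the 2 of 7 genes called higher on all 3 days, in isografts (0.943% of all genes) as in allografts (1.28% of all genes).

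Tlr4, the lipopolysaccharide receptor (chr5:85161247-85174882), moved the other way. It was 7.97, 8.10 and 7.68 in normal DA hearts, and 7.32, 6.83 and 6.87 on day 2, 7.48, 7.39 and 6.33 on day 3, and 7.24, 7.08 and 6.95 on day 4 in allografts. It was 8.16, 7.65 and 7.70 in normal Lewis hearts, and 7.37, 6.64 and 7.09 on day 2, 7.55, 7.18 and 7.27 on day 3, and 7.59, 7.04 and 7.28 on day 4 in isografts. The lowest normal array, at 7.65, stood just above the highest graft array, at 7.59. In allografts the difference was -0.91, -0.85 and -0.83 log2 (SE 0.25), and Tlr4 fell on days 2 and 4 (limma adjusted p 0.0344 and 0.0365) but not on day 3 (adjusted p 0.0947). In isografts it was -0.80, -0.51 and -0.53 log2 (SE 0.25, limma adjusted p 0.155, 0.441 and 0.349), none of which passed. The allograft calls are narrow: that of day 2 was lost without any 1 of normal DA replicates 1, 2 and 3 and allograft day 2 replicates 2 and 3 (adjusted p up to 0.149). That of day 4 was lost without any 1 of normal DA replicates 1 and 2 and allograft day 4 replicates 2 and 3 (adjusted p up to 0.141), while the direction held in all these fits. Day 3, whose difference lies between those of the other days, was called without allograft day 3 replicate 1 (-1.06 log2, adjusted p 0.0433). Cardiomyocyte markers also moved: of 9 measured, 3, 5 and 4 fell in isografts by day (0.422%, 0.732% and 0.556% of all genes fell). In allografts 2, 0 and 3 fell (2.45%, 0.724% and 4.26% of all genes) and 1 rose on day 3 (1.55%). Between normal DA and normal Lewis hearts 5 of the 9 were called, against 1.01% of all genes. The mean level of these markers was 7.30 to 8.25 in normal Lewis hearts and 6.20 to 6.80 in isografts. It was 5.99 to 6.77 in normal DA hearts and 5.56 to 6.60 in allografts. Their part in the result was not tested.

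Ly96, the small protein that binds lipopolysaccharide inside the Tlr4 complex (chr5:7365536-7397864), rose on day 4. It was 9.06, 8.91 and 8.93 in normal DA hearts, 9.48, 9.24 and 9.72 on day 2, 9.13, 9.53 and 9.22 on day 3, and 9.30, 9.95 and 10.03 on day 4 in allografts. It was 8.80, 8.84 and 8.96 in normal Lewis hearts, 9.01, 9.49 and 9.22 on day 2, 9.23, 9.37 and 9.43 on day 3, and 9.46, 9.42 and 9.60 on day 4 in isografts. Every graft array lay above the normal arrays of its own strain, by a small margin on days 2 and 3. The day 4 rise was 0.79 log2 in allografts (SE 0.17, limma adjusted p 0.00413) and 0.63 in isografts (SE 0.17, adjusted p 0.0442). The isograft call was lost in 8 of 14 alternatives, among them the omission of any 1 of the 6 arrays compared (adjusted p 0.0785 to 0.196). In allografts it was lost in the fit of the compared groups alone (adjusted p 0.0941). On days 2 and 3 the differences were 0.51 and 0.33 log2 in allografts and 0.37 and 0.48 in isografts, with adjusted p from 0.0817 to 0.533. Among the RNAs for lipopolysaccharide sensing, Cd14 and Ly96 were called higher and Tlr4 lower in day 4 allografts. The Ly96 and Tlr4 calls carry the limits given above. Which cells held each RNA cannot be told from these bulk samples.

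Tlr1, the partner of Tlr2 (chr14:43737761-43750389, next to Tlr6 on that chromosome), was dim on the endothelial arrays. Its level was 4.13, 4.29 and 3.99 in normal DA hearts, and 5.02, 5.10 and 5.72 on day 2, 4.54, 4.71 and 4.41 on day 3, and 4.46, 4.75 and 5.97 on day 4 in allografts. In normal Lewis hearts it was 4.13, 4.44 and 4.24, and the 9 isograft arrays lay between 4.26 and 4.64. Allograft arrays were all above the DA arrays, with 1 array of day 4 far above the other 2, while isograft and Lewis arrays overlapped. Tlr1 rose in allografts on day 2 (1.15 log2, SE 0.25, limma adjusted p 0.00892) and on day 4 (0.93 log2, SE 0.25, adjusted p 0.0209). The day 3 difference of 0.42 log2 (SE 0.25) had an adjusted p of 0.671, and the isograft differences were 0.082, 0.20 and 0.15 log2 (SE 0.25, adjusted p 0.828 to 0.978). Without allograft day 4 replicate 3 the day 4 difference was 0.47 log2 and was not called (adjusted p 0.132). The call of day 4 was also lost without normal DA replicate 1 or 3 (adjusted p 0.0561 and 0.0830) and with the compared groups alone (adjusted p 0.239), and that of day 2 without allograft day 2 replicate 3 (0.92 log2, adjusted p 0.0670). On allograft day 4 replicate 3 the means of 4 dendritic cell, 11 T cell and 11 pan-leukocyte markers were 6.91, 7.91 and 9.07. Each was the highest of all 24 endothelial arrays, the last by a small margin. On allograft day 4 replicate 2, where Tlr1 was 4.75, the same means were 6.38, 7.70 and 9.07. The macrophage mean was 9.39 there and 9.27 on replicate 3. On allograft day 2 replicate 3 the mean of 8 neutrophil markers was 7.11, again the highest of the 24. The macrophage and fibroblast means of that array, 9.23 and 11.66, were the highest of its group, and its T cell mean, 6.54, the lowest. Their part in the result was not tested.

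Tlr7, the endosomal receptor for single-stranded RNA (chrX:30644324-30670796), was also dim in normal endothelium. Its level was 3.90, 4.17 and 4.09 in normal DA hearts, and 5.44, 4.48 and 6.13 on day 2, 4.73, 4.80 and 4.57 on day 3, and 5.44, 5.52 and 5.23 on day 4 in allografts. In normal Lewis hearts it was 3.90, 4.24 and 3.72, and in isografts 4.39, 4.75 and 4.34 on day 2, 4.45, 4.81 and 4.48 on day 3, and 6.04, 4.70 and 5.34 on day 4. All graft arrays lay above all normal arrays, and those of allograft day 2 and isograft day 4 were widely spread. Tlr7 rose by 1.30 and 1.34 log2 in allografts on days 2 and 4 (SE 0.31, limma adjusted p 0.0141 and 0.00697) and by 1.41 log2 in isografts on day 4 (SE 0.31, adjusted p 0.0122). The remaining differences were 0.65 log2 in allografts on day 3, and 0.54 and 0.63 in isografts on days 2 and 3 (SE 0.31, limma adjusted p 0.433 to 0.628). The allograft day 4 call held in all 13 alternatives. That of allograft day 2 was lost without allograft day 2 replicate 3 (0.90 log2, adjusted p 0.104) or normal DA replicate 1 (1.22 log2, adjusted p 0.0508), and with the compared groups alone (adjusted p 0.111). That of isograft day 4 was lost without isograft day 4 replicate 1 (1.07 log2, adjusted p 0.0947) or normal Lewis replicate 3 (1.29 log2, adjusted p 0.0665). Allograft day 2 replicate 3 and isograft day 4 replicate 1 had the highest macrophage marker level of their groups (9.23 and 8.99). Isograft day 4 replicate 3 came close to the latter (8.96), with Tlr7 at 5.34. The allograft arrays of day 4 had macrophage levels of 8.93 to 9.39, with Tlr7 at 5.23 to 5.52. The part of macrophage RNA in these values was not tested.

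Myd88, the adaptor (chr8:127952161-127956230), was bright on every array and was not called in any comparison. Its level was 11.39, 11.41 and 11.83 in normal DA hearts, and 11.50, 11.96 and 11.74 on day 2, 11.00, 11.51 and 12.23 on day 3, and 11.48, 11.54 and 11.28 on day 4 in allografts. In normal Lewis hearts it was 11.27, 11.95 and 11.25, and in isografts 11.42, 12.32 and 11.64 on day 2, 11.65, 12.08 and 12.32 on day 3, and 11.78, 12.39 and 11.58 on day 4. The spread within a group was as wide as the distance between groups, and all neighbouring groups overlapped. The differences were 0.30, 0.53 and 0.43 log2 in isografts and 0.19, 0.037 and -0.11 in allografts (SE 0.29, limma adjusted p 0.515 to 0.994). The 95% intervals of these differences reached up to 1.13 log2 in isografts of day 3 and down to -0.71 log2 in allografts of day 4, so changes within them are not excluded.

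**Figure D2:**
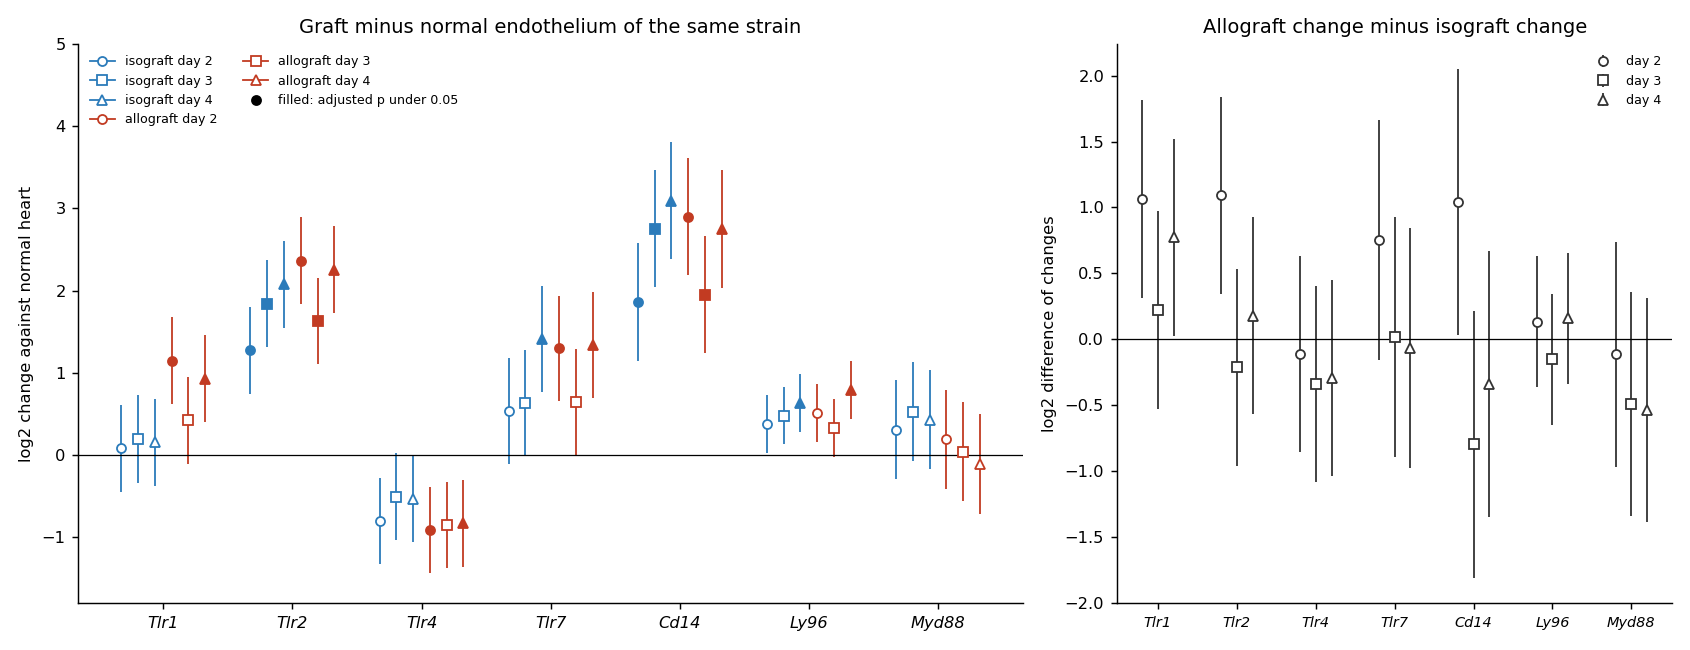
Left, log2 change of each gene in isografts (blue) and allografts (red) of days 2, 3 and 4 against normal endothelium of the same strain, with 95% intervals from the limma fit and filled symbols where the adjusted p was under 0.05. Right, the allograft change minus the isograft change per day with 95% intervals, none of which passed the adjusted test. Cd14 and Tlr2 lie furthest above 0 on every day on the left, and Tlr4 lies below 0.

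The order of the groups differed from gene to gene. Cd14 had its highest mean in isografts of day 4 (10.48 ± 0.42, SD, n = 3) and its lowest in normal Lewis hearts (7.39 ± 0.24, SD, n = 3). The single gap in that order lay between the lowest graft group, isografts of day 2 (9.25 ± 0.73, SD, n = 3), and normal DA hearts (7.52 ± 0.18, SD, n = 3), since all other neighbours overlapped. Tlr2 ran from 8.18 ± 0.37 (SD, n = 3) in isografts of day 4 down to 5.57 ± 0.20 (SD, n = 3) in normal DA hearts. Its neighbours were apart between allografts of day 3 and normal Lewis hearts, and between the strains. Tlr4 had its highest mean in normal DA hearts (7.92 ± 0.21, SD, n = 3) and its lowest in allografts of day 2 (7.01 ± 0.28, SD, n = 3), with a gap between normal Lewis hearts and isografts of day 3. Tlr7 ran from 5.40 ± 0.15 (SD, n = 3) in allografts of day 4 to 3.95 ± 0.27 (SD, n = 3) in normal Lewis hearts, with a gap between isografts of day 2 and normal DA hearts. For Tlr1, Ly96 and Myd88 every neighbouring pair of groups overlapped.

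The DA graft is foreign to its Lewis recipient and the Lewis graft is not, so the changes themselves were compared, allograft minus isograft on the same day. No gene of the 7 passed on any day with limma, and the share of all genes that passed was 0.0% on days 2 and 3 and 0.00703% on day 4. At an unadjusted p under 0.05 there were 3 members on day 2 (480 of all genes), 0 on day 3 (334) and 1 on day 4 (783). On day 2 the allograft change was the larger by 1.09 log2 for Tlr2 (95% interval 0.34 to 1.84), 1.06 for Tlr1 (0.31 to 1.81), 1.04 for Cd14 (0.029 to 2.05) and 0.76 for Tlr7 (-0.16 to 1.67), each with an adjusted p of 0.9999. On day 3 the Cd14 change was -0.80 log2 in the same direction of subtraction (-1.81 to 0.21), that is, the isograft value was the larger. On day 4 the difference was 0.77 log2 for Tlr1 (0.021 to 1.52) and -0.54 for Myd88 (-1.39 to 0.31). The intervals leave room for differences of over 1 log2, so these tests do not show that the graft types act alike.

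Day 4 was also set against day 2 within each graft type, and none of the 7 genes passed. From day 2 to day 4 in isografts, Cd14 went up by 1.23 log2 (95% interval 0.52 to 1.95, limma adjusted p 0.578), Tlr7 by 0.87 (0.22 to 1.51, adjusted p 0.999) and Tlr2 by 0.80 (0.28 to 1.33, adjusted p 0.893). Their day 2 and day 4 arrays overlapped. At the adjusted threshold 0 of 7 genes passed, against 0.0352% of all genes. At an unadjusted p under 0.05 there were 3 of the 7 and 343 of all 14217 genes. In allografts the day 4 values of Cd14 and Tlr2 differed from day 2 by -0.15 and -0.11 log2. None of the 7 passed there, where 0.38% of all genes were called at the adjusted threshold. At an unadjusted p under 0.05 there were 0 of the 7 and 1197 of all genes. Between the strains, none of the 7 passed in normal hearts, where 1.01% of all genes were called. Tlr2 was lower in DA than in Lewis hearts by a difference of -0.53 log2 (95% interval -1.06 to -0.0017, limma adjusted p 0.599), with no overlap of arrays. Such gaps in that direction were seen for 8.53% of all genes.

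Leukocytes of the allografts held far more of 6 of the 7 RNAs than the endothelial fraction. After the difference of 0.30 log2 between the medians of the 2 array sets was removed, 6 of 7 genes were at least 2-fold higher with no overlap between the 4 leukocyte and 9 allograft endothelial arrays, against 8.85% of all genes. No test was made, since cell type and a likely separate normalization cannot be told apart. As deposited, Tlr1 was 10.65 on day 2, 10.19 and 9.95 on day 3 and 10.92 on day 4 in leukocytes, against 4.41 to 5.97 in allograft endothelium. That difference was 5.16 log2 (35.8-fold), and Tlr7, at 11.06, 10.55, 10.08 and 10.47 in the same order, differed by 5.09 log2 (34.1-fold). Their endothelial values lie among the dimmest genes, where signal and background were not told apart here. Both folds are therefore rough, and the likely separate normalization may have moved them either way. Both genes are known from leukocytes.

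The surface receptors of bacterial products followed in the leukocyte arrays. Tlr2 was 12.09, 11.67, 11.25 and 12.11 (3.82 log2, 14.1-fold), and Cd14 was 14.00, 13.73, 13.49 and 13.87 (3.41 log2, 10.7-fold). Tlr4 was 9.91, 9.85, 9.17 and 10.30 (2.45 log2, 5.47-fold), and Ly96 was 11.41, 11.05, 10.88 and 11.30 (1.35 log2, 2.55-fold). Myd88 was 11.75, 11.58, 11.67 and 12.19, which differed by -0.084 log2 and overlapped the endothelial range of 11.00 to 12.23. Day 3 replicate 2 was the lowest leukocyte array for 6 of the genes. The day 3 arrays also carried more endothelial marker signal (10.05 and 10.85 against 8.89 on day 2 and 9.04 on day 4), and the same 6 genes stayed past the rule without them.

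Ranks within an array need no common scale. Tlr1 stood at percentile 3.30 to 28.4 of all genes on the endothelial arrays and at 79.7 to 90.4 on the leukocyte arrays, and Tlr7 at 1.01 to 29.6 against 81.3 to 91.7. Cd14 stood at 44.2 to 93.9 against 99.4 to 99.8. Tlr4 stood at 32.9 to 57.3 against 67.2 to 84.7, and Myd88 at 93.9 to 98.4 against 94.9 to 97.0, the 1 gene of the 7 whose ranges overlap.

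**Figure D3:**
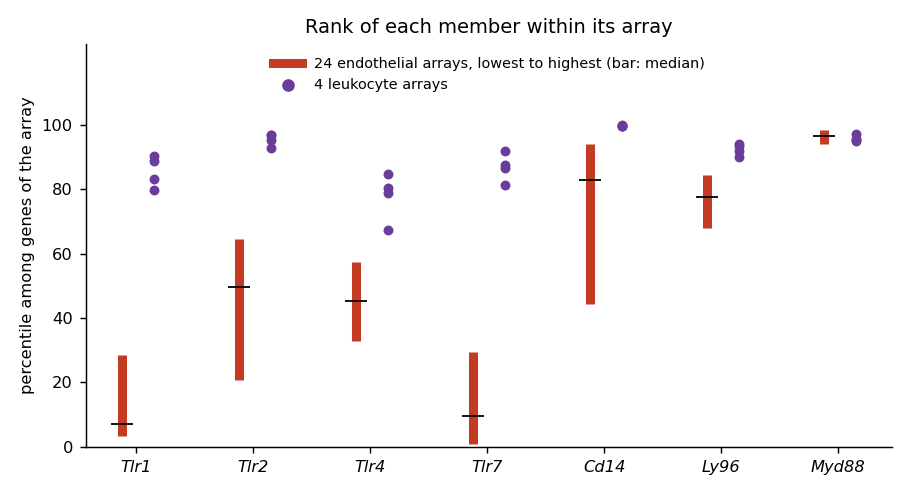
Percentile rank of each gene among all 14217 genes of its array, with red bars from the lowest to the highest of the 24 endothelial arrays, a black line at their median, and 1 purple point for each of the 4 leukocyte arrays. Tlr1 and Tlr7 go from the lowest 30 percentiles to around 80 to 92, Cd14 reaches 99, and the Myd88 points of both sets overlap near 96.

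Macrophage genes moved with Cd14 and Tlr2. Of 16 macrophage and monocyte markers 15 were measured, and 5, 12 and 13 of them rose in isografts and 13, 12 and 15 in allografts on days 2, 3 and 4. Their mean level was 5.74 to 5.92 in normal DA and 5.68 to 6.03 in normal Lewis hearts. It was 8.19 to 9.23, 7.77 to 8.50 and 8.93 to 9.39 in allografts, and 6.90 to 7.91, 7.62 to 8.54 and 8.26 to 8.99 in isografts of days 2, 3 and 4. On the leukocyte arrays it was 12.3 to 12.8. The dips of Tlr2 and Cd14 in day 3 allografts and their low values in day 2 isografts fall where this level was also lowest for the graft type. Of 11 pan-leukocyte markers 1, 4 and 5 rose in isografts and 8, 9 and 9 in allografts. For both lists, the shares of all genes that rose were 1.06%, 1.8% and 2.61% in isografts and 3.53%, 1.55% and 7.19% in allografts. None of the 12 endothelial markers was called by limma in isografts. On days 2, 3 and 4, 4, 4 and 3 of them had an unadjusted p under 0.05, as had 1425, 1734 and 1997 of all 14217 genes. In allografts 1 of the 12 rose and 1 fell on day 2, and 1 rose and 3 fell on day 4. There 2.45% and 4.26% of all genes fell. The part of macrophage RNA in the rise of Tlr2, Cd14, Tlr7, Tlr1 and Ly96 was not tested. Tlr4 was lower on the graft arrays, and its signal was higher on the leukocyte arrays than on those of allograft endothelium. The part of leukocytes or other cells in the Tlr4 difference was not tested.

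**Figure D4:**
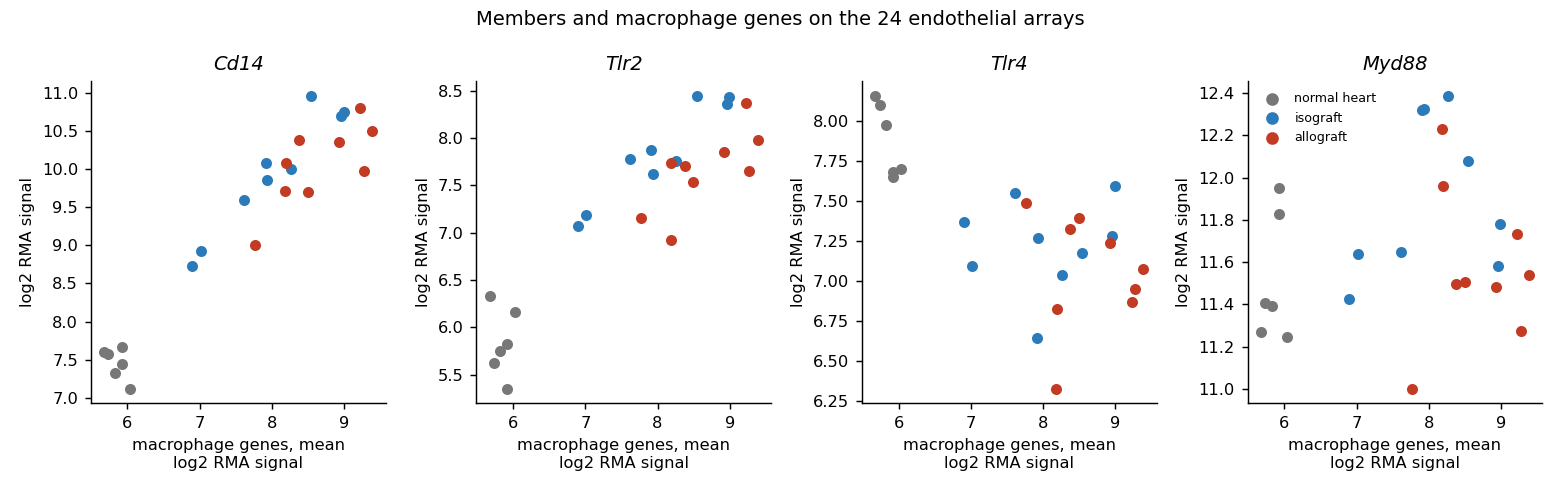
Level of Cd14, Tlr2, Tlr4 and Myd88 against the mean level of 15 macrophage genes on the 24 endothelial arrays (both log2 RMA signal), with normal hearts in grey, isografts in blue and allografts in red. Cd14 and Tlr2 climb with the macrophage genes, Tlr4 is higher in the 6 normal arrays than in any graft array, and Myd88 shows no clear course.

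Across the 24 endothelial arrays the genes fell into different company, given here as Pearson correlations without a test, since the arrays share groups and a normalization. Cd14 and Tlr2 went together (r 0.96, and 0.76 once group means were removed). Tlr4 and Myd88 went apart (r -0.54), more so within groups (-0.81 with group means removed): where Myd88 stood high in its group, as on allograft day 3 replicate 3 (12.23), Tlr4 stood low (6.33). The genes most like Cd14 were Ccl6 (r 0.98), Lgmn (0.98) and Ctss (0.97), and those most like Tlr2 were Cd300c2 (0.97), Lgmn (0.97) and Gpnmb (0.96). Ctss and Gpnmb are among the macrophage markers above. Tlr7 was most like Pgd (0.93), Clec4a1 (0.92) and Tmem37 (0.92), Ly96 most like Uchl3 (0.95), Clec12a (0.94) and Eef1b2 (0.93), and Tlr1 most like Slc41a2 (0.88), Tmed1 (0.85) and Fst (0.85). Tlr4 was most like Wscd1 (0.91), Tnfaip8 (0.90) and Meox2 (0.88), and Myd88 most like Gadd45a (0.94), Midn (0.93) and Map3k8 (0.93).

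Beyond the 7 genes, 83 of 102 pathway genes in 9 lists were measured, and their counts are set against the shares of all genes that rose (1.06%, 1.8% and 2.61% in isografts, 3.53%, 1.55% and 7.19% in allografts on days 2, 3 and 4) or fell (0.422% to 0.732% and 0.724% to 4.26%). In lists of 9 to 19 genes such shares give about 1 call or none, so a count of 0 or 1 there is no result about the list. Tlr8, another endosomal receptor for RNA and the 1 measured gene of 7 further Toll-like receptors, rose by 1.54 log2 in isografts on day 4 (limma adjusted p 0.00684) and by 1.50 and 1.54 in allografts on days 2 and 4 (adjusted p 0.00576 and 0.00282). Of 10 accessory and sorting proteins, 1, 3 and 3 rose in isografts and 2, 1 and 3 in allografts on days 2, 3 and 4. Unc93b1, which carries the endosomal receptors out of the endoplasmic reticulum, rose by 0.93 log2 in isografts and 1.06 in allografts on day 4. Ly86, a relative of Ly96 that pairs with Cd180, rose by 1.12 log2 in isografts and 2.52 in allografts on day 4, and Cd180 by 0.65 in allografts. Lbp, which binds lipopolysaccharide and passes it to Cd14, rose in isografts by 1.71, 2.03 and 1.98 log2 (adjusted p 0.0235, 0.00482 and 0.00462). In allografts its differences were 0.72, 0.33 and 0.92 log2 and did not pass.

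Of 15 kinases and ubiquitin ligases 0 passed with limma in isografts on any day (1, 1 and 2 had an unadjusted p under 0.05), and 1, 0 and 1 in allografts, near the share of all genes. In allografts Traf6, the ubiquitin ligase below Myd88, fell by 0.45 log2 on day 2 (adjusted p 0.0407), and Ube2n, its partner enzyme, rose by 0.67 on day 4 (adjusted p 0.00852). Of 9 transcription factors 0 passed with limma in isografts, and 0, 0 and 1 had an unadjusted p under 0.05. Irf5 rose in allografts by 0.76 and 0.64 log2 on days 2 and 4 (adjusted p 0.00899 and 0.0169), and Irf7 fell by 1.76 log2 on day 2 (adjusted p 0.0227). Of 12 brakes of the pathway, Tnfaip3, which removes ubiquitin from signalling proteins, rose in isografts on days 3 and 4 by 1.52 and 1.35 log2 (adjusted p 0.0231 and 0.0388) and in allografts on day 2 by 1.29 (adjusted p 0.0336). In day 4 allografts Cyld, another such enzyme, rose by 0.60 log2 (adjusted p 0.0399), and Dusp1, a phosphatase of MAP kinases, fell by 0.39 (adjusted p 0.0434).

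Genes for proteins that the receptors are reported to sense in injured tissue rose in part. Of 10 endogenous ligands, 0, 3 and 2 rose in isografts and 4, 1 and 4 in allografts on days 2, 3 and 4. Tnc, the matrix protein tenascin C and a ligand of Tlr4, rose by 3.77 log2 in isografts and 4.96 in allografts on day 4 (adjusted p 0.00396 and 0.000119). Vcan, a proteoglycan sensed by Tlr2, rose by 1.88 and 2.07 log2 in allografts on days 2 and 4 and by 1.82 in isografts on day 3. Fn1, fibronectin, rose by 1.28 log2 in allografts and 1.19 in isografts on day 4. Fibroblast markers, of which 4 of 8 rose on day 4 in each graft type, had a mean level of 8.39 to 12.06 in allografts and 9.71 to 10.66 in isografts of day 4 against 7.18 to 8.37 in normal hearts, and their part was not tested. S100a8 and S100a9, proteins of neutrophils and a ligand pair of Tlr4, rose in allografts on day 2 by 2.87 and 3.86 log2 (adjusted p 0.0247 and 0.0123). Neutrophil markers, which include both genes, had 4 of 8 members called on that day and 0 in allografts on days 3 and 4, where 1 each had an unadjusted p under 0.05.

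At the far end, 19 inflammatory target genes were measured, of which 5, 8 and 9 rose in isografts and 9, 6 and 11 in allografts on days 2, 3 and 4. Their median change was 1.05, 1.61 and 1.62 log2 in isografts and 1.10, 1.29 and 1.81 in allografts. Sele, the adhesion molecule E-selectin of activated endothelium, rose on all days, by 3.36, 3.68 and 3.57 log2 in isografts and 2.39, 1.85 and 2.53 in allografts (adjusted p 6.32e-06 to 0.00780). Ptgs2, the inducible cyclooxygenase, rose by 3.08, 3.73 and 3.20 log2 in isografts and by 2.52 and 2.50 in allografts on days 2 and 4. Cxcl2, a neutrophil chemokine, rose by 3.61 log2 in isografts and 2.38 in allografts on day 4, and Il1b by 3.24 and 4.07. Cxcl10, a chemokine of interferon responses, rose in allografts on day 4 by 3.73 log2 (adjusted p 0.00127), and its isograft difference of 1.78 on that day did not pass (adjusted p 0.228). Tnf, named after its values were seen as the 1 target gene called lower, fell in allografts by 1.79 and 1.55 log2 on days 2 and 4 (adjusted p 0.00788 and 0.0128). Leukocytes were past the 2-fold rule for 7 of the 19 target genes, among them Il1b and Cxcl2, against 8.85% of all genes.

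Related receptor systems held further calls. Of 3 receptors with the same intracellular TIR domain, Il1r1, the interleukin-1 receptor, rose by 0.51 log2 in allografts on day 4 (adjusted p 0.0217). Of 4 other pattern recognition receptors, Clec7a, the fungal glucan receptor of myeloid cells, rose by 1.57 and 1.87 log2 in isografts on days 3 and 4 and by 2.08 and 1.83 in allografts on days 2 and 4. Ifih1 and Rig1, cytoplasmic sensors of viral RNA, fell in allografts on day 2 by 1.23 and 1.05 log2 (adjusted p 0.00222 and 0.0323). Nod1, a sensor of bacterial cell wall, rose by 0.65 log2 in allografts on day 4 (adjusted p 0.0183). In the difference of changes 0 of the 83 list genes passed with limma on any day. The shares of all genes that passed were 0.0% on days 2 and 3 and 0.00703% on day 4. At an unadjusted p under 0.05 there were 10, 6 and 3 of the 83 on days 2, 3 and 4. The counts among all 14217 genes were 480, 334 and 783.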

How the data were processed

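RNA of the 28 samples had been amplified in 1 cycle and hybridized as biotin-labelled cRNA. What the authors deposited is a log2 value for each probe set, from RMA and the affy package per the submitters' processing notes, with no versions given. They were used as they stood, with 0 columns left over. The table had 31099 probe sets. Controls (57), probe sets of more than 1 gene (436) and those without an annotation entry (9780) were dropped. Of the 20826 matched to 1 gene, 20758 had an Entrez identifier in RefSeq, which gave the symbols and GRCr8 positions. For the 4525 genes with several probe sets the one with the highest endothelial mean was kept, which left 14217 genes with no filter on dim ones.

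limma 3.58.1 in R 4.3.3 (lmFit and eBayes) was run on the 24 endothelial arrays, with a mean for every group, 16 residual and 4.06 prior degrees of freedom. Benjamini-Hochberg adjustment covered all genes in each of 12 comparisons: each graft group against normal hearts of its strain, the difference of both changes per day, DA against Lewis, and day 4 against day 2. The fit was tested on simulated data. The number of arrays limits the precision. The leukocyte comparison used levels only. Named list genes are called members, up to 4 per graft type and list, by their largest change, and likeness names the 3 genes with the highest correlation. The alternatives were a trended robust prior, array weights, median-subtracted arrays, only the groups compared, all probe sets, no dim genes, the replicate number as a block, and each array left out. Members and lists were chosen with earlier results of these data known.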

Additional observations from a re-analysis of the deposited data

How the results depend on the processing

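The counts of the 7 genes called moved with single arrays: leaving out each array in turn gave 1 to 2 (2 as reported) in isografts on day 2, 2 to 3 (4 as reported) on day 4, and in allografts 2 to 5 (5) on day 2, 2 to 3 (2) on day 3 and 4 to 6 (6) on day 4, with 2 throughout for isografts on day 3. With the dimmest genes left out, 3 were called in allografts on day 2, since Tlr1 and Tlr7 were then not among the genes tested. With the replicate number as a block, 3 were called in isografts on day 2 and in allografts on day 3, because Tlr4 then passed (adjusted p 0.0427 and 0.0224). With group means removed, same-numbered arrays of different groups correlated at a median of 0.0991 over 84 pairs, 42 of them over 0.1. Arrays with other numbers correlated at a median of -0.0447 over 168 pairs, 39 of them over 0.1. The reported fit did not use the numbers to pair the samples. Whether same-numbered arrays share a batch was not tested. The small Myd88 difference in allografts on day 3 (0.037 log2) was -0.12 with array weights and -0.29 to 0.33 over arrays left out, and that of day 4 (-0.11) was -0.18 to 0.031; the cause was not tested. Of all member changes set against their reported value, 726 kept direction and side of the threshold, 30 lost the call, 7 gained it and 5 changed sign. The Cd14 calls, and those of Tlr2 except in day 2 isografts, held in all 14 alternatives. Leaving out both day 3 leukocyte arrays, an alternative chosen after seeing the data, changed no call of the leukocyte comparison.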
